A study of Mus musculus with 3 samples.

Results

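The acute-phase genes described here are Lcn2, Lrg1, Saa3, Slpi, S100a8, S100a9, Hp, Cebpd, Socs3 and Timp1, 10 genes of 20117 mRNA loci in the deposited annotation. They were taken by gene name, and all 10 were found, each in a locus of its own. They had been chosen by their values in these same libraries, as genes high in the adult library and low in the embryonic ones, so their higher adult level is given as a description and supports nothing by itself. The data are RNA levels of heart ventricle from C57BL/6 mice at 2 embryonic stages, E10.5 and E13.5 (days of gestation), and from adults of 8 weeks, as total RNA prepared with a kit that keeps the strand. No treatment or altered allele is given for any of the 3 stages. There is 1 library per stage, and the number and sex of the animals behind each are not given in the sources used here. Without replicates the spread between animals of 1 stage is unknown, and the differences below carry no p-value. All comparisons with the adult share that 1 library, and whatever sets it apart from the embryonic libraries other than age cannot be told apart from age.

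The acute-phase response is the change in protein production that follows infection or injury. Cytokines of the interleukin-6, interleukin-1 and tumour necrosis factor families act on liver and other cells through STAT3, C/EBP and NF-kB transcription factors, and the cells then secrete plasma proteins, antimicrobial proteins and protease inhibitors, while feedback proteins damp the signal. Several of these proteins are also made locally in the heart by muscle, vessel and connective tissue cells or are carried in by neutrophils and monocytes.

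Levels are FPKM, in which fragment numbers are divided by exon length and by the size of the library, so they and can be set side by side between genes. Read counts are not used here, and the commonest small product of FPKM and length was taken as 1 fragment. That puts about 14.8 (E10.5), 26.7 (E13.5) and 21.1 (adult) fragments behind 1 FPKM over 1 kb. These depths are approximate and carry no interval, and the 2645 unspliced loci among those used gave lower ones (10.8, 21.1 and 10.8), so the fragment numbers below give only their order of size. Markers of atrial and ventricular muscle were also read. The 4 atrial markers summed to 6382 FPKM (E10.5), 6766 FPKM (E13.5) and 40.9 FPKM (adult), while 4 ventricular markers summed to 6478, 8634 and 17630 FPKM. The sums are of like size in the embryonic libraries and do not tell the chambers apart there. Myl2 (7790, 12217 and 11568 FPKM) and Tnni3 (533, 1137 and 4059 FPKM) are outside the ventricular sum because their loci join other genes.

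All 10 genes were highest in the adult, and 8 followed the order E10.5, E13.5, adult. Their median level was 0.258 FPKM at E10.5, 1.13 FPKM at E13.5 and 13.6 FPKM in the adult, while the median over 12569 mRNA loci that reached 1 FPKM in at least 1 library was 9.92, 10.3 and 6.94 FPKM. Together they held 0.0052%, 0.0104% and 0.115% of the FPKM of mRNA loci. In a bulk library, fewer cells of a type and less RNA per cell cannot be told apart, and this holds for every level below. All 10 genes passed the limit of 1 FPKM in at least 1 library, 5 of them (Lcn2, Lrg1, Saa3, Slpi and Hp) through the adult alone, so nothing is read from their having passed.

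**Figure D1:**
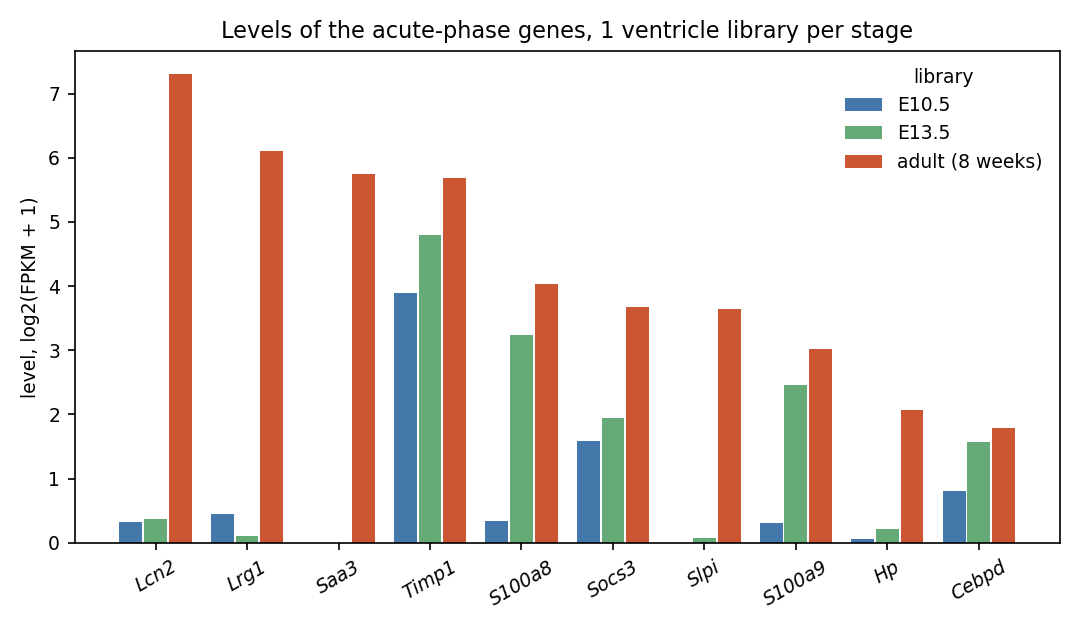
Levels of the 10 acute-phase genes as log2(FPKM + 1) on the y axis, with 1 bar per library (E10.5, E13.5 and adult) and no error bars because each stage has 1 library. Lcn2, Lrg1, Saa3, Slpi and Hp stand near 0 in both embryonic libraries, S100a8 and S100a9 are already raised at E13.5, and Timp1, Socs3 and Cebpd are present at all 3 stages.

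Differences between stages were computed on the log2(FPKM + 1) scale, which understates the change of low genes, and a difference of 2 or more (4-fold) was counted. From E10.5 to the adult, 8 of the 10 genes were higher by 2 or more, 5.59% of all 12569 loci were, and none of the 10 was lower. From E13.5 to the adult the count was 4 of 10, beside 4.41% of all loci. From E10.5 to E13.5 it was 2 of 10, S100a8 and S100a9, beside 0.851% of all loci. The first 2 counts repeat what the genes were chosen for. The median difference of the 10 genes was 3.17 from E10.5 to the adult and 1.80 from E13.5 to the adult, where the medians over all loci were -0.40 and -0.50. Between the embryonic stages it was 0.25, close to the 0.17 of all loci. Hp at 2.02 and Socs3 at 2.08 lay just over the limit of 2 from E10.5 to the adult, and Timp1 at 1.80 lay just under it.

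**Figure D2:**
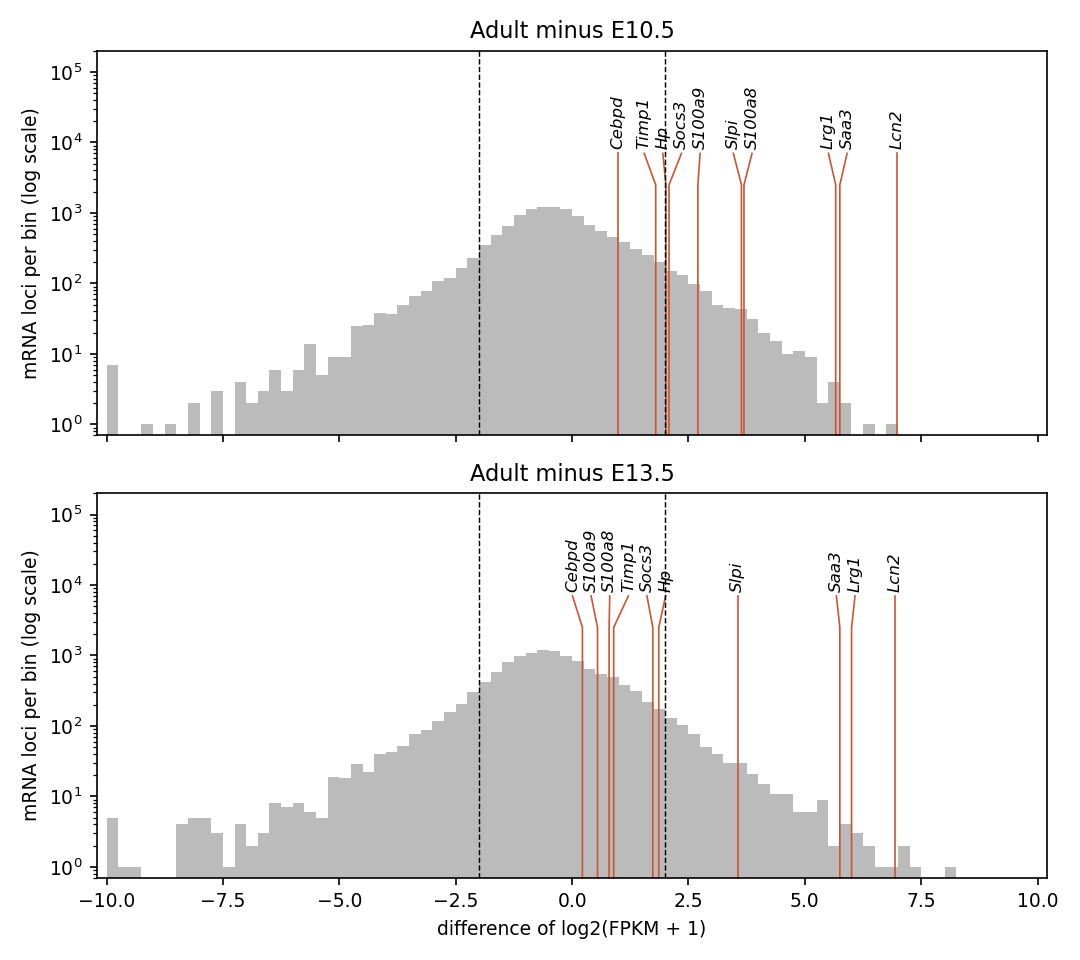
Number of mRNA loci (y axis, log scale) by difference of log2(FPKM + 1) (x axis, bins of 0.25), adult minus E10.5 above and adult minus E13.5 below, with the 10 genes marked by labelled lines and the limits of 2 and -2 dashed. The first bar also holds any lower values. Against E10.5, Lcn2 is at the right end of the distribution, and Cebpd is the nearest of the 10 to the bulk of loci in both panels.

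The antimicrobial and protease-inhibiting secreted proteins come first. Lcn2 encodes lipocalin-2, which binds bacterial siderophores and so withholds iron. It was at 0.246 FPKM at E10.5, 0.298 FPKM at E13.5 and 156.9 FPKM in the adult (chr2:32384634-32389155, minus strand). The embryonic values rest on only about 3 and 7 fragments, and the adult value on about 2818. The difference from E10.5 to the adult was 6.99, rank 1 among the 12569 loci, and from E13.5 it was 6.93, rank 5. Lcn2 was the highest of the 10 genes in the adult and stood at rank 264 of all mRNA loci there.

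Slpi encodes the secretory leukocyte protease inhibitor, which blocks neutrophil elastase. Its level was listed at 0 for E10.5, 0.057 FPKM for E13.5 and 11.4 FPKM for the adult (chr2:164354070-164356507, minus strand). The E13.5 value is close to that of 1 fragment (0.0428 FPKM), so Slpi was at or near the lower limit of these libraries in both embryonic stages. The difference to the adult was 3.64 from E10.5 and 3.56 from E13.5. No fold is given against a library listed at 0, since an exact 0 can be a failed estimate.

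S100a8 and S100a9 encode the subunits of calprotectin, a calcium- and zinc-binding protein abundant in neutrophils and monocytes. S100a8 was at 0.27 FPKM at E10.5, 8.46 FPKM at E13.5 and 15.4 FPKM in the adult (chr3:90669071-90670034, plus strand). S100a9 was at 0.239 FPKM at E10.5, 4.52 FPKM at E13.5 and 7.06 FPKM in the adult (chr3:90692633-90695691, minus strand). Unlike the other 8 genes, both differed by more than 2 between the embryonic stages, by 2.90 (rank 33) and 2.16 (rank 90), and by only 0.80 and 0.55 between E13.5 and the adult. With either rescaling of the libraries, S100a9 comes just under 2 between the embryonic stages, at 1.97 and 1.96. The E13.5 levels rest on about 88.4 and 58.8 fragments. The genes lie 22598 bases apart on opposite strands, and S100a8 was the higher of the pair in each library, 1.13 times S100a9 at E10.5, 1.87 times at E13.5 and 2.18 times in the adult. The E10.5 ratio rests on fewer than 3 fragments for each gene and carries little weight.

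Among the plasma proteins of the response, Lrg1 encodes leucine-rich alpha-2-glycoprotein, which acts on TGF-beta signalling in endothelium. It was at 0.363 FPKM at E10.5, 0.076 FPKM at E13.5 and 68.0 FPKM in the adult (chr17:56119678-56121946, minus strand). It was the only one of the 10 genes listed lower at E13.5 than at E10.5, a difference of -0.34 between levels of about 7 and 3 fragments. The adult exceeded E10.5 by 5.66 and E13.5 by 6.00.

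Saa3 encodes serum amyloid A3, the member of the serum amyloid A family made largely outside the liver, by macrophages and fat among other sources. Both embryonic libraries listed it at 0, and the adult held it at 52.9 FPKM (chr7:46711998-46715676, minus strand), which rests on about 591 fragments over a matched transcript of 531 nt. The difference of 5.75 ranked 4 against E10.5 and 15 against E13.5. The neighbouring family members Saa1 and Saa2, the liver forms, were listed at 0 in all 3 libraries, and Saa4 reached 0.0206 FPKM in the adult. How fragments shared among these similar genes were counted is not given in the sources used here.

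Hp encodes haptoglobin, which binds free haemoglobin. It was at 0.0372 FPKM at E10.5, 0.154 FPKM at E13.5 and 3.19 FPKM in the adult (chr8:109575128-109579172, minus strand). The difference to the adult was 2.02 from E10.5 and 1.86 from E13.5. Its adult level is above that of Cebpd only, and the E10.5 value is about that of 1 fragment.

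The regulators were present before birth. Cebpd encodes C/EBP delta, a transcription factor that is induced in the acute phase and binds the promoters of acute-phase genes. It was at 0.743 FPKM at E10.5, 1.97 FPKM at E13.5 and 2.46 FPKM in the adult (chr16:15887286-15892016, plus strand). The difference to the adult was 0.99 from E10.5 and 0.22 from E13.5, the smallest of the 10 in both comparisons. Its locus also holds an assembled transcript of 4731 nt beside the matched one of 2260 nt, so the level per length depends on which of them is counted.

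Socs3 encodes the suppressor of cytokine signalling that STAT3 induces and that shuts off the interleukin-6 receptor subunit gp130. It was at 2.01 FPKM at E10.5, 2.84 FPKM at E13.5 and 11.8 FPKM in the adult (chr11:117966087-117969366, minus strand). The adult level was 5.84 times that at E10.5 and 4.14 times that at E13.5. All 3 values rest on more fragments, about 81.3, 206 and 675, than those of most of the 10 genes.

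Timp1 encodes the tissue inhibitor of metalloproteinases 1, a secreted protease inhibitor. It was at 13.8 FPKM at E10.5, 26.6 FPKM at E13.5 and 50.3 FPKM in the adult (chrX:20870166-20874737, plus strand). It was the highest of the 10 genes in both embryonic libraries and was higher at each later stage by similar steps, 1.93 times between the embryonic stages and 1.89 times from E13.5 to the adult. The next mRNA locus, Syn1, was at 0.0785 FPKM or less in all 3 libraries.

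In order of adult level the genes ran from Lcn2, Lrg1, Saa3 and Timp1 through S100a8, Socs3 and Slpi to S100a9, Hp and Cebpd. Saa3 and Timp1 (52.9 and 50.3 FPKM) and Socs3 and Slpi (11.8 and 11.4 FPKM) are close neighbours in that order, and with 1 library no spread is known that could separate them.

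The 250 bases before the start of these genes were read because the levels of the genes were chosen to move together and because C/EBP, STAT and NF-kB sites in such promoters are the textbook route of acute-phase induction. RefSeq promoter sequences (GRCm38.p6) were at hand for 8 of the 10 genes and not for Hp and Cebpd. Each motif was searched on both strands. The C/EBP motif TTGCNNAA was found in 4 of the 8 windows (Lcn2, Slpi, S100a9 and Saa3) and in 9.56% of 32851 promoters of all genes. The STAT motif TTCNNNGAA was found in Socs3 alone of the 8, and in 7.02% of all. The NF-kB motif GGANTTNCC was in none of the 8 and in 3.15% of all, and the TATA box TATAAA was in S100a8 alone and in 12.4% of all. A match is a run of letters and not a measured binding site, and the windows reach no further than 250 bases. Shown are the windows with a C/EBP match outside any assembled transcript and the one with a STAT match, 5′ to 3′ on the strand of the gene, with the match in capitals and the start of the gene just after the last base.
Saa3 (GRCm38, chr7:46715677-46715926, minus strand): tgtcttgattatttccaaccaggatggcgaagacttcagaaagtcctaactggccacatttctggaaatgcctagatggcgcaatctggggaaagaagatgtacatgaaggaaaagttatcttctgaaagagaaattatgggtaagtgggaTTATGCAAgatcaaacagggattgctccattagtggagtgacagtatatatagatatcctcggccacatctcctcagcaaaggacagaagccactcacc
Slpi (GRCm38, chr2:164356508-164356757, minus strand): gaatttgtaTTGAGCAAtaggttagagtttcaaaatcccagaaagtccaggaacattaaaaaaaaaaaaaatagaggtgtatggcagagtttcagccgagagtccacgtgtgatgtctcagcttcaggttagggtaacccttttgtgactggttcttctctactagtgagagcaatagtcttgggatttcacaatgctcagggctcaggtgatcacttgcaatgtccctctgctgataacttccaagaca
S100a9 (GRCm38, chr3:90695722-90695971, minus strand): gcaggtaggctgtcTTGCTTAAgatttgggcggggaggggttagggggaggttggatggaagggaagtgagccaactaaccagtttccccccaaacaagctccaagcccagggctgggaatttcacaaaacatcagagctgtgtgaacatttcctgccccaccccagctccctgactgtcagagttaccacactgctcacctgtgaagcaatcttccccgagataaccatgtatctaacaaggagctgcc
Socs3 (GRCm38, chr11:117969367-117969616, minus strand): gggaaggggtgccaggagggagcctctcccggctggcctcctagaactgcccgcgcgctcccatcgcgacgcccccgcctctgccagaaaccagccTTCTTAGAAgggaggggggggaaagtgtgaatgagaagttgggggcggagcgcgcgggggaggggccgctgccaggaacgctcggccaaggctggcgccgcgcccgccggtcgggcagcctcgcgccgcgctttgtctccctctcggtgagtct

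In Saa3 the first base of the C/EBP match lay 99 bases before the start, the nearest of the 4. In Slpi it lay 241 bases before and in S100a9 236 bases before, where the RefSeq start at 90695721 is a little upstream of the deposited one at 90695691. The STAT match of Socs3 began 154 bases before its start. In Lcn2 the match began 216 bases before the RefSeq start, inside an assembled transcript that reaches further upstream, and its surroundings are shown for comparison.
Lcn2 (GRCm38.p6, minus strand, C/EBP match in capitals): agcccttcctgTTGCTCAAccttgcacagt

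The genes next to these on the chromosome were looked at in the same way. Taking the nearest mRNA locus on each side gives 18 neighbours that are not themselves among the 10. Adult minus E10.5, the median difference of the 18 was 0.06, beside 0.0 for all 20117 mRNA loci with no limit on level. Of the 18 neighbours, 13 reached 1 FPKM in at least 1 library. Among these 13, 1 was at least 2 higher in the adult than in the E10.5 library, beside 5.59% of all loci that reached 1 FPKM. That 1 is Plin5, the gene for a lipid droplet protein of oxidative muscle beside Lrg1, at 0.597 FPKM (E10.5), listed at 0 (E13.5) and at 24.2 FPKM (adult). Ptges2 beside Lcn2 was level, at 18.1, 22.1 and 20.6 FPKM, and so was Araf beside Timp1, at 31.2, 34.3 and 36.0 FPKM.

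The pathway around these genes was described with 8 lists, whose counts take genes with a locus of their own. Genes were called higher or lower only among those that reached 1 FPKM in at least 1 library. A gene that reached it in the adult alone could be called higher in the adult but not lower. The shares of all loci are likewise over loci that reached it. Without that limit the shares from E10.5 to the adult were 3.49% higher and 5.06% lower. Of the cytokines and receptors upstream, 19 were counted, 14 reached 1 FPKM in at least 1 library, and 5 were at least 2 higher in the adult than in the E10.5 library. Of all loci, 5.59% were higher by as much. None of the 14 was lower by 2 or more, as 8.1% of all loci were. Osmr, the oncostatin M receptor, had the largest difference (0.775, 1.06 and 23.5 FPKM, in the order E10.5, E13.5, adult, as in all such triplets below), followed by Il1b, interleukin-1 beta (0.0402, 0.133 and 5.33 FPKM). The others were Il6 (listed at 0 at E10.5, then 0.184 and 4.63 FPKM), Il1rn and Tnfrsf1b. The shared receptor subunit gp130, encoded by Il6st, was the highest of the list in each library, at 37.1, 30.7 and 57.9 FPKM. Against E13.5, 4 of the 14 were higher by 2 or more and none was lower by as much, where 4.41% and 9.88% of all loci were.

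Of the JAK-STAT, C/EBP and NF-kB transducers, 18 were counted and 16 reached 1 FPKM in at least 1 library. Of these, 1 was at least 2 higher in the adult than in the E10.5 library. The share, 1 of 16, is close to the 5.59% of all loci. The gene was Bcl3, an NF-kB co-regulator, at 0.199, 0.392 and 4.77 FPKM. Stat3, the main interleukin-6 transducer, came next with 11.8, 14.8 and 47.8 FPKM, a difference of 1.93, and passes 2 with median-of-ratios scaling. Jak1 was the highest of the list in both embryonic libraries and Stat3 in the adult, where Jak1 stood at 45.6 FPKM after 33.7 and 29.2 FPKM, and Tyk2 and Ikbkb had the lowest differences, at -0.21 and -0.16. Of 15 other feedback inhibitors, Ptpn6, a tyrosine phosphatase of blood cells, was higher by 2.32 (1.34, 2.80 and 10.7 FPKM), and Cish differed by 1.94. Socs1 went the other way from Socs3, at 1.41, 3.01 and 0.232 FPKM, as did Socs4, with a difference of -0.76. The ubiquitous phosphatase gene Ptpn11 was the highest of that list, at 29.98, 24.7 and 38.6 FPKM.

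Of 25 other acute-phase protein genes, 9 reached 1 FPKM in at least 1 library. Of these 9, 7 were at least 2 higher in the adult than in the E10.5 library. None was lower by as much, beside 5.59% and 8.1% of all loci. Serpina3n, a serine protease inhibitor, was at 0.207, 0.335 and 50.0 FPKM, and Steap4, a metalloreductase, was at 0.252, 0.153 and 36.7 FPKM. Cp (ceruloplasmin), C3 and Cfb (complement), Serping1 (the C1 inhibitor) and Il1rn were the others. Of the 7, Serpina3n, Steap4, Cp, Cfb and Il1rn reached 1 FPKM in the adult alone. They were thus counted only through the library where they are high, and nothing is read from the share of 7 in 9. Over all 25 genes the median difference was 0.12. Serping1 was the highest of the list in both embryonic libraries, at 3.40 and 7.43 FPKM, and reached 42.9 FPKM in the adult. The list was split, since 16 of the 25 stayed under 1 FPKM in the adult, among them the liver products Crp, Apcs, Orm1, Fga, Fgb and Hpx. Saa1, Saa2 and Fgg were listed at 0 there.

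Of 18 genes listed as possible binding partners or substrates of the 10 proteins, 16 reached 1 FPKM in at least 1 library. Of these, 2 were higher and 2 lower by 2 or more in the adult than in the E10.5 library, beside 5.59% and 8.1% of all loci. The higher ones were Mmp3, a metalloproteinase that Timp1 inhibits (0.037, 0.0206 and 13.1 FPKM), and Cd163, the macrophage receptor for haptoglobin bound to haemoglobin (0.205, 0.00839 and 6.00 FPKM). The lower ones were Slc22a17, described as a lipocalin-2 receptor (12.03, 7.55 and 0.326 FPKM), and Mmp14, another metalloproteinase (36.3, 45.4 and 7.49 FPKM). Whether Mmp14 is bound by any of the 10 proteins is not shown by these data. The highest of the list were Tgfbr1 at E10.5 (41.7 FPKM), Mmp2 at E13.5 (48.1 FPKM) and Il6st in the adult. Counts of this list move with the processing, to 6 higher and 1 lower with median-of-ratios scaling. Of 18 paralogs, 13 reached 1 FPKM in at least 1 library. Of these, 7 were higher by 2 or more and none was lower by as much, beside the same 5.59% and 8.1%. They were Ptgds, the lipocalin-type prostaglandin D synthase (2.03, 0.66 and 244.6 FPKM), S100a1 of cardiac muscle (88.1, 213.9 and 1485 FPKM), S100a4, S100a6, Timp4, Wfdc1 and Wfdc17. S100a10 and S100a11 had negative differences of -0.55 and -0.16.

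Of 12 genes that respond to glucocorticoids, hormones that act together with interleukin-6 on acute-phase genes, 5 were at least 2 higher in the adult than in the E10.5 library (Klf9, Pdk4, Mt1, Zbtb16 and Mt2), and 1, Hif3a, was lower by 3.42, beside 5.59% and 8.1% of all loci. Tsc22d3 was the highest of the list in both embryonic libraries (60.3 and 102.8 FPKM, then 35.1 FPKM in the adult) and Mt1 in the adult (390.7 FPKM). Klf9 was at 2.39, 1.62 and 38.7 FPKM, and Pdk4 at 6.16, 7.34 and 71.3 FPKM. Fkbp5, which glucocorticoids also induce, was lower in the adult, at 7.10, 4.93 and 3.01 FPKM. With Hif3a, Tsc22d3 (-0.76) and Per1 (-0.29) it made 4 of the 12 with negative differences from E10.5 to the adult, and 8 had positive ones. Immediate early genes, which tissue handling can induce within minutes, were counted against the same shares. Of 15, none was higher and 2, Jund and Ier2, were lower by 2 or more, and none was either way with median-of-ratios scaling. Klf6 was the highest of that list in each library, at 25.6, 32.6 and 25.8 FPKM, and Ier3 and Fosl2 had the largest positive differences, of 1.45 and 1.23.

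**Figure D3:**
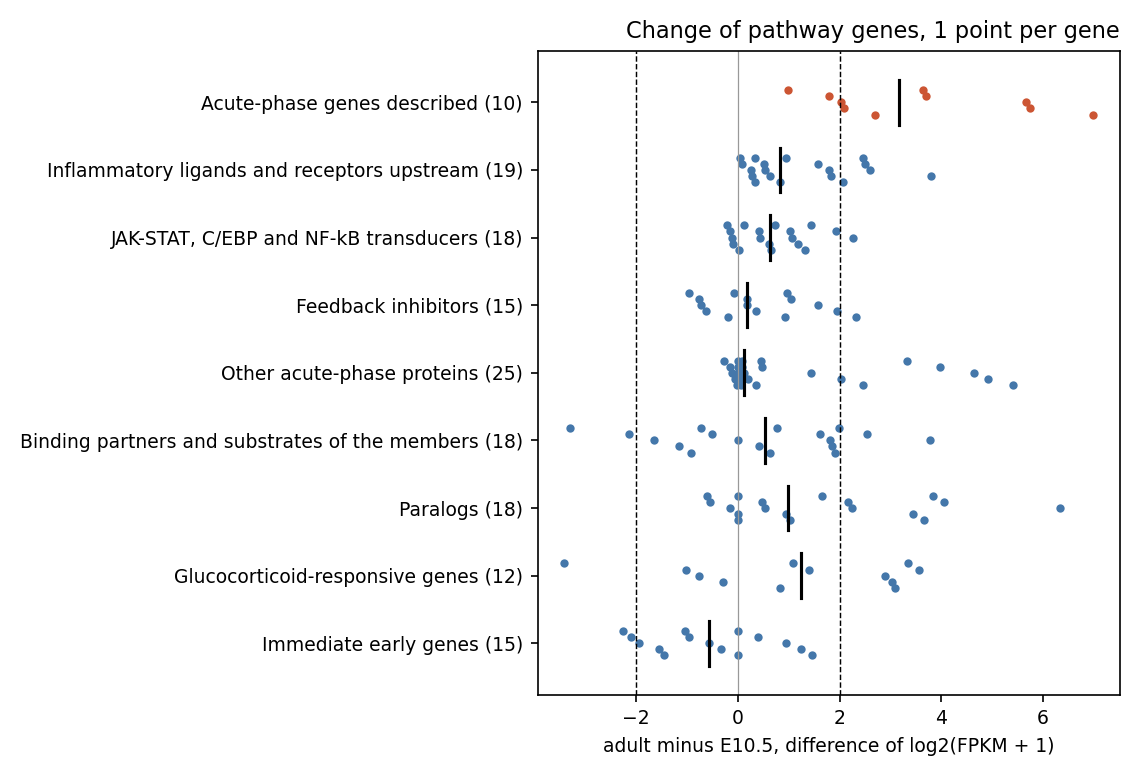
Difference of log2(FPKM + 1), adult minus E10.5 (x axis), for the 10 acute-phase genes (red) and 8 pathway lists (blue), with 1 point per gene, the number of genes in brackets, the median as a black bar and the limits of 2 and -2 dashed. Points are spread vertically only to keep them apart. The 10 genes, which were chosen for this difference, have a median of 3.17. The lists are drawn with their genes under 1 FPKM in every library. So drawn, their medians run from -0.57 for immediate early genes to 1.24 for genes that respond to glucocorticoids. Over genes that reached 1 FPKM in at least 1 library, the median is 3.32 for other acute-phase proteins and 2.17 for paralogs.

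Markers of other cells moved with the 10 genes in part. Over all loci 5.59% were higher and 8.1% lower by 2 or more from E10.5 to the adult, and the marker counts are set against these shares. As before, genes were called only among those that reached 1 FPKM in at least 1 library. All 9 monocyte and macrophage markers counted were at least 2 higher in the adult than in the E10.5 library, and their summed level was 36.0, 58.3 and 369.5 FPKM. Against E13.5, 6 of the 9 were higher by 2 or more and none was lower by as much, beside 4.41% and 9.88% of all loci. Lyz2 was the highest of them, at 32.5, 43.6 and 243.7 FPKM, and Ccr2 (0.264, 0.27 and 24.2 FPKM) and Itgam (0.176, 0.421 and 18.8 FPKM) had the largest differences. Saa3, Lcn2 and S100a8 are known to be made by such cells among others, and the part of these cells in the adult levels was not tested.

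Of 12 neutrophil markers, 4 reached 1 FPKM in at least 1 library, each of them in the adult alone. None of the 4 could have been called lower, so nothing is read from their count, and the median difference of the 12 was 0.15. Of the 4, 2 were higher by 2 or more in the adult, Csf3r (0.0419, 0.246 and 5.33 FPKM) and Fpr1 (0.183, 0.13 and 4.23 FPKM). The summed level of the 12 was 1.08, 3.23 and 14.99 FPKM. Mmp9, a granule protease gene, lay just under the limit with a difference of 1.99 (0.0697, 0.0585 and 3.25 FPKM), and Cxcr2 was at 0.0591, 0.0316 and 1.35 FPKM. With a pseudocount of 0.1 the count is 4. Other granule protein genes were under 1 FPKM in the adult, with Elane, Ngp and Camp listed at 0. Mpo was at 0.0159 FPKM, Ctsg at 0.045 FPKM, Ltf at 0.0916 FPKM, Prtn3 at 0.336 FPKM and Mmp8 at 0.337 FPKM. At E13.5, where S100a8 and S100a9 were already at 8.46 and 4.52 FPKM, Ngp was at 0.737, Camp at 0.758 and Ltf at 0.464 FPKM, and Elane was listed at 0. Mature neutrophils carry S100a8 and S100a9 RNA without that of the early granule proteins, so these genes bear mainly on immature cells, and the part of mature neutrophils was not tested.

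The liver, which makes most plasma acute-phase proteins, left little in the adult library, where 7 hepatocyte markers summed to 1.61 FPKM and Alb was listed at 0, against 8.94 and 23.8 FPKM at E10.5 and E13.5. The 5 lung epithelial markers summed to 0.269 FPKM and the 4 adipocyte markers to 0.209 FPKM in the adult, and none of either list reached 1 FPKM in any library. The 6 lymphocyte markers summed to 0.144, 0.997 and 1.95 FPKM. Of 7 mesothelial markers, 6 were lower by 2 or more, and their sum went from 122.8 FPKM at E10.5 to 10.99 FPKM in the adult. No endothelial marker of 9 passed the limit either way (222.3, 149.1 and 233.1 FPKM summed). Of 5 fibroblast markers Dcn was higher and Tcf21 lower by 2 or more. Their sums of 120.8, 254.0 and 413.0 FPKM are mostly Dcn in the adult (350.7 FPKM), and from E13.5 to the adult 4 of the 5 had negative differences, with a median of -0.998. The 4 platelet markers summed to 22.4, 33.5 and 43.7 FPKM with none past the limit. Pf4 carries that sum (13.1, 21.6 and 37.6 FPKM), while Itga2b and Gp9 were lower in the adult and the median difference from E10.5 was -0.52. Of 3 erythroid markers with a locus of their own 2 were lower by 2 or more. The globin loci, which join several globin genes, were left out of that count and went both ways. From E10.5 to the adult the beta-globin locus differed by 3.43 (130.7, 1320 and 1423 FPKM). The alpha-globin locus differed by -1.55 (382.2, 1533 and 129.6 FPKM). All 4 atrial markers were lower and 2 of 4 ventricular markers higher by 2 or more.

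**Figure D4:**
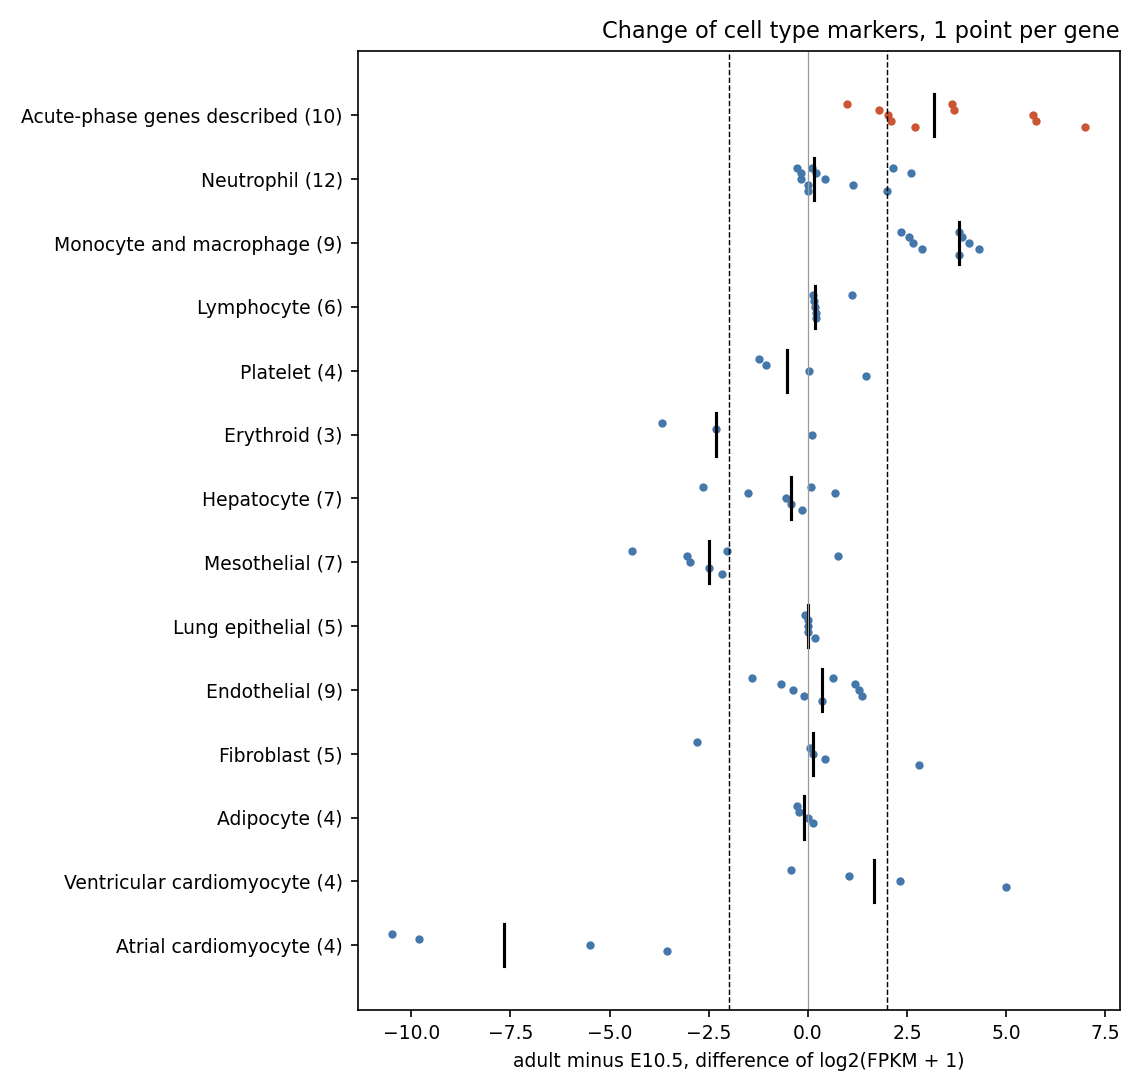
Difference of log2(FPKM + 1), adult minus E10.5 (x axis), for the 10 acute-phase genes (red) and 13 cell type marker lists (blue), with 1 point per gene, the number of genes in brackets, the median as a black bar and the limits of 2 and -2 dashed. Points are spread vertically only to keep them apart. All monocyte and macrophage markers lie right of the limit of 2, while lung epithelial, adipocyte and most lymphocyte markers lie near 0 because they are barely present in any library.

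Among the 8 loci whose pattern over the 3 libraries was most like the median pattern of the 10 genes were Palmd, Mylk, Hfe, Slc11a1, Adamtsl5, Slco2b1 and Tcp11l2. Likeness was the distance between profiles of log2(FPKM + 1) centred on their own mean, over 3 libraries and among 12569 loci, and ran from 0.32 to 0.34 for these 8. The 10 genes themselves lay further from their own median pattern, from 0.63 for Socs3 and 0.72 for Hp to 3.81 for Lcn2. Slc11a1, an iron and manganese transporter of phagocytes, was at 0.121, 1.34 and 7.43 FPKM. Hfe, which regulates iron uptake, was at 3.24, 6.36 and 26.8 FPKM. With only 3 points to a profile, many loci lie close together and the order among them is of no weight.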

How the data were processed

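Heart ventricle RNA of C57BL/6 mice was sequenced by the authors as paired ends, 1 stranded total RNA library per stage. Per the labels and the methods, reads were mapped to mm10 with TopHat and Bowtie and assembled with Cufflinks, once guided by known transcripts and once unguided. Versions, options and the treatment of multiply mapped fragments are not given in the sources used here. The deposited values are FPKM per merged locus and library, and a deposited annotation gives the exons of each locus. The FPKM columns sum to 601115 (E10.5), 808971 (E13.5) and 443471 (adult).

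Genes were found by name, or by RefSeq accession where a symbol had changed. mRNA loci hold a transcript equal to a protein-coding one of RefSeq, and 12569 of 20117 reached 1 FPKM in at least 1 library. Differences are of log2(FPKM + 1), counted from 2, without a test, because each stage has 1 library. Depth was estimated from 10437 RefSeq-matched loci of 1 transcript, from the most frequent FPKM times kb in bins of 0.005. The alternatives were a pseudocount of 0.1, median-of-ratios scaling (factors 1.07, 1.19 and 0.804), scaling to the mRNA sum without globin and mitochondrial loci, values summed over all loci of a gene, no filter, and limits of 1 and 3. Loci joining several genes were left out of the lists. From each pathway list the text names the highest locus of each library and the 2 largest rises and falls, and all genes of a count of 5 or fewer. Further names were chosen after their values were seen. Of the loci most like the 10 genes, 1 is not reported here. The 10 genes, lists and motifs were chosen with earlier results of these data known. Of 19021 deposited starts with a RefSeq start of the same symbol, 86.1% lay within 100 bp of it. The scaling and the count of changed loci were tried on simulated libraries with planted changes, counted after median-of-ratios scaling. The simulation held no spread between animals and is no test between stages. Python 3.11.15, numpy 2.4.6, pandas 2.3.3 and matplotlib 3.10.9 were used.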

Additional observations from a re-analysis of the deposited data

How the results depend on the processing

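No paired analysis was possible because no stage was sequenced more than once, and for that reason no replicate was left out. In all 80 combinations of a gene, a comparison with the adult and an alternative for single genes, the gene kept a higher level in the adult. That outcome was fixed in advance and supports nothing. A pseudocount cannot turn the sign of a difference, and each gene has a single locus to sum. Both scalings raise the adult library against the embryonic ones. With a pseudocount of 0.1 the median difference of the 10 genes moved to 4.99 against E10.5 and 2.85 against E13.5, since low values weigh more. Genes higher by 2 or more from E10.5 to E13.5 numbered 1 with median-of-ratios scaling and 1 with scaling to the mRNA sum, where S100a8 was left. With a limit of 3 the counts were 5 for adult against E10.5 and 0 for E13.5 against E10.5. Median-of-ratios scaling moved the median of all loci from -0.40 to -0.06 (adult against E10.5) and from -0.50 to -0.03 (adult against E13.5), and gave 9 and 6 of the 10 genes higher by 2 or more. It changed the split of all loci higher and lower by 2 or more from 703 and 1018 to 989 and 766 against E10.5, and from 554 and 1242 to 896 and 769 against E13.5. Scaling to the mRNA sum gave 707 and 906 against E13.5, and 79 and 80 in place of 107 and 31 between the embryonic stages. That scaling also turned the small difference of Lcn2 between embryonic stages from 0.06 to -0.01. Of 168 counts of other lists under alternatives, 153 stayed within 1.5 times and 15 did not. Values under 1 FPKM rest on a few fragments, and depth is an estimate.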
